A study of Mus musculus with 8 samples.

Results

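The genes described here are 8 members of the membrane-spanning 4-domain subfamily A (Ms4a): Ms4a1, Ms4a3, Ms4a4b, Ms4a4c, Ms4a6b, Ms4a6c, Ms4a6d and Ms4a7. They were chosen by name, out of 24405 genes with a row in any of the 8 count tables. Microwell-seq, a single-cell RNA-seq method that counts unique molecular identifiers (UMIs) near the 3′ end of transcripts, was applied to liver, heart and kidney grafts of BALB/c mice in C57BL/6 recipients, harvested on day 7 without immunosuppression. The labels give male mice of 8 weeks and name the strain as BALB/c for every sample, so that the strain of a cell cannot be read from them. Of each organ there was 1 library of peripheral blood mononuclear cells (PBMC) and 1 of tissue-infiltrating lymphocytes (TIL), which had been purified from the digested graft on a density gradient. For liver and kidney there was also 1 library of parenchymal cells (PC), labelled as solid organ, while PC of heart were not analysed here. No condition had a second library, and the study used more than 1 recipient of each organ without saying which of them a library holds, so organs were not tested against each other.

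Each table held 10000 barcodes, and totals ran from 3418722 UMIs (kidney PC) to 19171264 UMIs (liver PC). The 47542 barcodes with at least 500 UMIs were taken as cells, between 795 (kidney PC) and 10000 (liver PC) in a library. Cells entered a gate by the transcripts they held: T cells by at least 2 UMIs of Cd3d, Cd3e and Cd3g, B cells by at least 2 of Cd79a and Cd79b, NK cells by at least 2 of Ncr1, Klrb1c, Klra4, Klra7 and Klra8 with no Cd3 transcript, monocytes by at least 5 of Chil3, macrophages by at least 5 of C1qa, C1qb and C1qc, neutrophils by at least 1 of Csf3r, and granulocyte precursors by at least 3 of Elane, Prtn3, Mpo and Ctsg. A gate is a rule on transcripts and not a sort. The gates held 17593 T, 804 B, 474 NK, 8658 monocyte, 9441 macrophage, 10217 neutrophil and 214 precursor cells, and a cell counted in every gate it passed. Between 2.48% (kidney TIL) and 42.2% (liver PC) of gated cells passed several gates, so levels in cells of exactly 1 gate are given beside several of the comparisons. Of 264 such levels, 55 moved by over 1.5 times from the level in all cells of the gate. Levels are UMIs of the gene per 1000000 UMIs (CPM) of the summed cells of a gate in a library, given for sums of at least 20 cells.

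The library labelled heart TIL held 1056 UMIs of Alb, a hepatocyte gene, and 2 of Myl7, a cardiomyocyte gene, while the library labelled liver TIL held 128 UMIs of Myl7 and 206 of Acta1 and none of Alb. Organ markers of both therefore go against their labels, and the main results that rest on them are also given without them where a test was left. Genes used to check the gates, and not to set them, were highest on the median in the matching gate for T cells (4378 CPM, at most 2220 CPM elsewhere), NK cells (20075 CPM, at most 7635 CPM elsewhere), macrophages (3907 CPM, at most 2087 CPM elsewhere), neutrophils (68692 CPM, at most 48979 CPM elsewhere) and precursors (434 CPM, at most 30.8 CPM elsewhere). A B list (Ighm, Ighd, Ly6d and Cd74) was higher in macrophages (median 16708 CPM) than in B cells (12825 CPM), and in the library labelled liver TIL it was 7146 CPM in the B gate and 16708 CPM in macrophages. The monocyte list was higher in precursors (9986 CPM) than in monocytes (8231 CPM). The precursor list was Cebpe, Gfi1, Kit, Cd34 and Fcnb, and not all of it was found in the precursor gate. Gfi1 and Kit had no UMI there in the library labelled heart TIL, and Kit and Cd34 had none in liver PC. The B gate of the library labelled liver TIL held 32718 CPM and that of liver PC 10318 CPM of 4 plasma cell genes, against 579 and 618 CPM in the B gates of heart and liver PBMC. Transcripts of neutrophils filled the blood libraries: 6 neutrophil genes made up 129026 CPM of the T gate in heart PBMC. In the neutrophil gate of the libraries labelled heart and liver TIL the same genes made up less, 14810 and 13726 CPM.

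Ms4a genes encode small proteins that cross the cell membrane several times, and they lie side by side in the genome. The best known is Ms4a1, which encodes CD20, the B cell antigen to which rituximab was raised. Ms4a3 is used as a mark of granulocyte and monocyte progenitors, Ms4a4b has been described in T cells, and the Ms4a6 genes and Ms4a7 are mostly known from myeloid cells.

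In the GENCODE annotation of GRCm38, the build to which the study aligned its reads, the 8 members lie within 391177 bases of chromosome 19, from chr19:11249675-11266241 (Ms4a1, minus strand) to chr19:11629496-11640851 (Ms4a3, minus strand). Ms4a4c (chr19:11404770-11427246), Ms4a4b (chr19:11443553-11467055), Ms4a6c (chr19:11469366-11482192) and Ms4a6b (chr19:11516512-11531256) follow each other among the genes of the family, all on the plus strand. They share stretches of sequence in pairs. The annotated transcripts of Ms4a4b and Ms4a4c share a run of 127 bases and 134 stretches of 50 bases, those of Ms4a6b and Ms4a6c a run of 96 bases and 109 such stretches, and those of Ms4a6b and Ms4a6d a run of 81 bases and 40 such stretches. The study removed reads with several alignments, and whether reads of these 5 genes were lost that way was not tested. In the last 500 bases of the transcripts, nearer to where the counts come from, Ms4a4b and Ms4a4c were 77.7% identical over 130 aligned bases and Ms4a6b and Ms4a6c 72.3% over 274, against 78.8% over 373 for Ms4a6b and Ms4a7.

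The promoters of the pairs are shown because the neighbours Ms4a4b and Ms4a4c were at their highest in different lineages. Each is the RefSeq window of GRCm38.p6 from 250 bases before to 50 bases after the start, plus strand, 5′ to 3′, and capitals mark runs of at least 10 bases that also occur in the promoter of the other gene of the pair. The windows are chr19:11443308-11443607 for Ms4a4b, chr19:11407411-11407710 for Ms4a4c, chr19:11518309-11518608 for Ms4a6b and chr19:11469118-11469417 for Ms4a6c. Those of Ms4a4b and Ms4a6c span the first base of the GENCODE genes given above. Those of Ms4a4c and Ms4a6b lie inside the GENCODE genes, downstream of their first base, so that they stand at an internal start.
Ms4a4b: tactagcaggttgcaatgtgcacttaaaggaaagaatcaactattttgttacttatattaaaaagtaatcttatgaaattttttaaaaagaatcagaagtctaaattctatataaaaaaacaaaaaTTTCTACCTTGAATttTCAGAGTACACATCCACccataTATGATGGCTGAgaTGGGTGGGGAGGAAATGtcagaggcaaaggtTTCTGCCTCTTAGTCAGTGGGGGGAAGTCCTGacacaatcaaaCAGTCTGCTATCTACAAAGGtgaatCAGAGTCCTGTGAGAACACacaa
Ms4a4c: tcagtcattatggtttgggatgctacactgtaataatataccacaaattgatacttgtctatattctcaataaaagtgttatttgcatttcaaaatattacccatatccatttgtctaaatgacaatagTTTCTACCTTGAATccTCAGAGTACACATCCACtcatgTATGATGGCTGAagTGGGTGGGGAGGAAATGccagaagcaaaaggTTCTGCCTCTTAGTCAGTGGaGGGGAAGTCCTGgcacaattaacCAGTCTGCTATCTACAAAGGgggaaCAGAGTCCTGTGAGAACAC
Ms4a6b: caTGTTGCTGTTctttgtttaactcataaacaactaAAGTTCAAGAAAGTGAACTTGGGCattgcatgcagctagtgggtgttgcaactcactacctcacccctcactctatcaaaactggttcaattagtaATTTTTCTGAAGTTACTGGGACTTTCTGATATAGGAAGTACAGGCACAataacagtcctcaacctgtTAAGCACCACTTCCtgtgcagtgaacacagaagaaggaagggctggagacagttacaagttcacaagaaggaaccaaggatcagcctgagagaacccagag
Ms4a6c: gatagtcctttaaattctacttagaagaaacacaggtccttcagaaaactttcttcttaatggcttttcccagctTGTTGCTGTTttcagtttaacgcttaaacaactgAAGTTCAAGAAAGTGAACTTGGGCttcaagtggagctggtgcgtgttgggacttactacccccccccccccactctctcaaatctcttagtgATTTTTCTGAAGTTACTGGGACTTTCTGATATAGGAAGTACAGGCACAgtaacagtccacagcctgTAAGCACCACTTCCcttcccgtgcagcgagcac

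Capitals cover 131 of the 300 bases in Ms4a4b and in Ms4a4c, and 96 bases in Ms4a6b and in Ms4a6c. Aligned to each other, the first pair matched at 234 of 277 bases with a longest shared run of 20 bases, and the second at 194 of 218 bases with a longest shared run of 48 bases, while the longest run in any of the 18 other pairs of members' promoters was 12 bases. The letters GAGGAA, as in PU.1-type sites, were found on either strand once in Ms4a4b and once in Ms4a4c and in 28.3% of all 32851 promoters. TGTGGT, as in RUNX sites, was found once in Ms4a4c and in 16.8% of promoters, and GAAA followed after any 2 bases by GAAA, as in interferon response elements, in none of these windows and in 3.44% of promoters. A window was at hand for 6 members, and none for Ms4a1 or Ms4a6d.

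The plot of levels by gate shows each member in each gate and library. Ms4a1 stood out in B cells, Ms4a3 in precursors and Ms4a4b in T and NK cells, Ms4a4c, Ms4a6c and Ms4a6d were highest in monocytes, Ms4a7 in macrophages, and Ms4a6b was spread over T cells and myeloid cells.

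**Figure D1:**
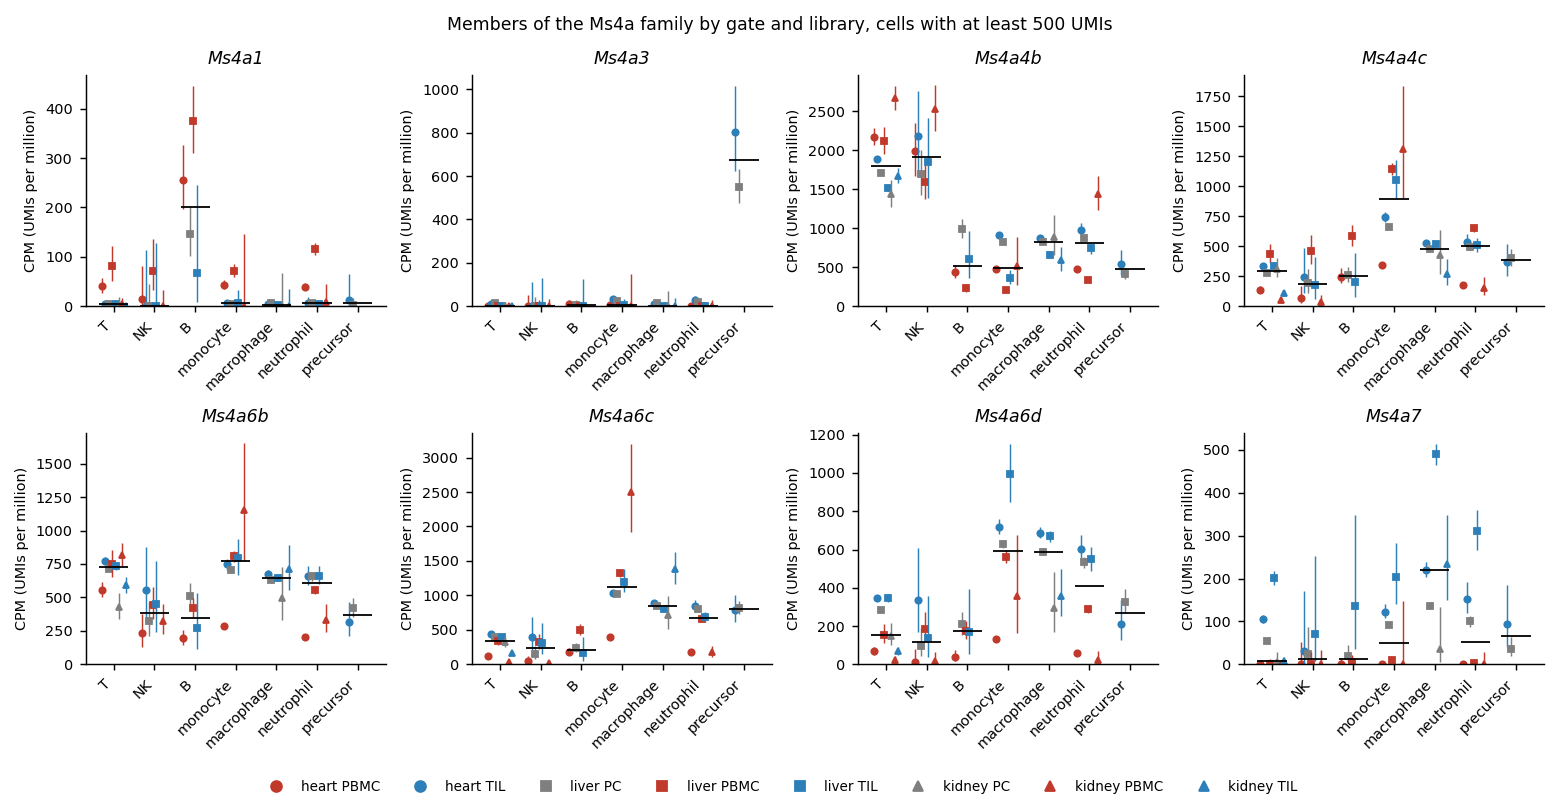
Level of each member (vertical axis, CPM from 0, a separate scale for each gene) in 7 gates (horizontal axis), 1 point per library with at least 20 cells, vertical lines giving the exact 95% Poisson interval and black bars the median over libraries. Ms4a4b lay between 1444 and 2666 CPM in all 8 T sums, and Ms4a3 reached 549 and 802 CPM in the 2 precursor sums against at most 31.4 CPM in any other sum.

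Ms4a1, the CD20 gene, had its highest level in B cells, although the more numerous neutrophils of liver PBMC held more of its UMIs (328) than the B cells there (123). Its level in the B gate was 374 CPM in liver PBMC, 256 CPM in heart PBMC, 145 CPM in liver PC and 67.7 CPM in the library labelled liver TIL. In the T gate of the same libraries it was 81.5, 40.2, 5.39 and 4.86 CPM, so that every B sum lay above the T sum of its library. The B level in the library labelled liver TIL rests on very few Ms4a1 UMIs. All barcodes of that library together held 37 of them, and its T gate held 16. Its B gate entered the test below with 20 cells, and held 211 UMIs of the 4 genes of the B list against 966 of the 4 plasma cell genes. That library alone therefore shows little about B cells. Within libraries Ms4a1 was higher in B than in T cells by 3.80 on the log2 scale (SE 0.47, n = 4 libraries, edgeR quasi-likelihood test, adjusted p = 5.036e-05) and, without the library labelled liver TIL, by 3.82 (edgeR adjusted p = 0.0005484).

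In cells of the B gate alone the level rose to 345 CPM in heart PBMC, 523 CPM in liver PBMC and 255 CPM in liver PC. After thinning every cell to 500 UMIs, 17.4% of B cells in liver PBMC (exact 95% interval 13.7% to 21.6%) and 13.3% in heart PBMC (9.51% to 17.8%) held a Ms4a1 transcript. Neutrophils, which should lack CD20, held it in 5.47% and 1.78% of cells of these libraries, at median depths of 680.0 UMIs and 791 UMIs against 711.5 UMIs and 796 UMIs in the B cells. T cells there held it in 4.03% and 1.58% of cells. The source of the 115 and 39.6 CPM in blood neutrophils was not tested. Kidney TIL had no row for Ms4a1.

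Of the 6 members that passed the filter on low counts, 3 were called between B and T cells, against 5.55% of all 3516 genes tested. Fewer members were called without library as a block, a fit for which the share of all genes called is not given. Ms4a4b was lower in B cells by 2.66 on the log2 scale (adjusted p = 9.769e-06) and Ms4a6b by 1.28 (adjusted p = 0.003726), both by edgeR's quasi-likelihood test. Without the library labelled liver TIL these became -2.78 (edgeR adjusted p = 3.361e-05) and -1.16 (0.006722). Ms4a4c differed by 0.47 (edgeR adjusted p = 0.4677), a value that became 0.76 (edgeR adjusted p = 0.04348) without the library labelled liver TIL and 1.27 in cells of exactly 1 gate, where it was called as well (adjusted p = 0.03104). The Ms4a6b difference was not called without heart PBMC (-1.22, edgeR adjusted p = 0.08189) or at 1000 UMIs a cell.

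Ms4a4b was the member of T and NK cells. Its level in the T gate was 2666 CPM in kidney PBMC, 2175 CPM in heart PBMC, 2123 CPM in liver PBMC, 1884 and 1520.3 CPM in the libraries labelled heart and liver TIL, 1674 CPM in kidney TIL, 1714 CPM in liver PC and 1444 CPM in kidney PC. NK cells, which share cytotoxic functions with CD8 T cells, had 2530.2 CPM in kidney PBMC, 2185 and 1849 CPM in the libraries labelled heart and liver TIL, 1993 CPM in heart PBMC, 1696 CPM in liver PC and 1593 CPM in liver PBMC. Both ranges overlapped almost wholly. After thinning, between 48.2% and 73.0% of T cells and between 52.7% and 69.0% of NK cells held a transcript, against 10.2% to 35.4% of monocytes, whose gate in graft libraries also takes in T cell transcripts (up to 2437 CPM of 5 T cell genes).

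NK cells differed from T cells in another member. Ms4a4b itself was lower in NK cells by 0.08 on the log2 scale (SE 0.10, n = 6 libraries, edgeR adjusted p = 0.7831). Of 5 members tested, 1 was called, against 6.87% of 2694 genes: Ms4a6b was lower in NK cells by 0.999 on the log2 scale (SE 0.14, edgeR adjusted p = 9.16e-06), and by 1.10 without the 2 libraries of doubtful label. Its levels in NK cells were 231 to 554 CPM (median 386 CPM) and in T cells 428 to 818 CPM (median 724 CPM), and the NK sum lay below the T sum in all 6 libraries.

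CD8 and CD4 T cells could be set side by side in 3 libraries with at least 20 cells of each, liver PC and those labelled heart and liver TIL. These held 3045, 2378 and 1432 CD8 cells but 107, 21 and 22 CD4 cells, and Ms4a4c rested on 25, 5 and 5 UMIs in the CD4 cells. Mean levels of Ms4a4b were 2197 CPM in CD8 and 2233 CPM in CD4 cells, a mean log2 difference of -0.02 ± 0.06 (SD, n = 3; exact two-sided sign-flip permutation test, p = 0.75). For Ms4a4c and Ms4a6b the differences were -0.11 ± 0.16 (exact permutation p = 0.5) and -0.09 ± 0.59 (exact permutation p = 0.75). Adjusted over these 3 genes each p was 0.75, and 3 libraries cannot give a p below 0.25.

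Ms4a6b had no single lineage. Its median was 771 CPM in monocytes (289 to 1152 CPM), 724 CPM in T cells and 648 CPM in macrophages (499 to 710.0 CPM), and these ranges overlapped. Monocytes differed from T cells by 0.00 on the log2 scale (SE 0.17, n = 6 libraries, edgeR adjusted p = 0.9986). B cells (196 to 511 CPM) and NK cells lay lower. Heart PBMC had the lowest monocyte level, 289 CPM, and its monocyte gate also carried the most neutrophil transcripts, 179570 CPM of 6 neutrophil genes against 74933 and 30974 CPM in liver and kidney PBMC. Their part in the level was not tested.

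Ms4a4c, Ms4a6c and Ms4a6d had their highest median levels in monocytes, while the macrophage levels of Ms4a6d and, in several fits, of Ms4a6c did not differ beyond the test's threshold. The monocyte gate is named for Chil3. In heart PBMC it held 7605 CPM of 5 monocyte genes, little above the neutrophil (6533 CPM), T (5745 CPM) and B gates (5574 CPM) there. Its 179570 CPM of neutrophil genes came near the 201625 CPM of the neutrophil gate. Levels of this gate in heart PBMC are thus not shown to be those of monocytes. For Ms4a4c the monocyte level was 1310.5 CPM in kidney PBMC, 1142 CPM in liver PBMC, 1051 and 741 CPM in the libraries labelled liver and heart TIL, 661 CPM in liver PC and 341 CPM in heart PBMC. The T levels of the same libraries were 49.6, 432, 336, 334, 281 and 139 CPM, so that the monocyte sum was higher in each of the 6. Ms4a6c ran from 399 CPM (heart PBMC) to 2502 CPM (kidney PBMC) in monocytes and from 38.3 to 446 CPM in T cells. Ms4a6d ran from 130.2 CPM (heart PBMC) to 993 CPM (labelled liver TIL) and from 22.5 to 348 CPM.

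Between monocytes and T cells, 5 of 6 members tested were called, in a comparison in which 40.5% of all 7544 genes were. Ms4a6c was higher in monocytes by 2.66 on the log2 scale (SE 0.20), Ms4a4c by 2.22 (SE 0.18) and Ms4a6d by 2.08 (SE 0.18), with edgeR adjusted p of 2.196e-27, 2.732e-24 and 7.924e-22. Ms4a7 was higher by 0.86 (SE 0.20, edgeR adjusted p = 1.44e-04), beside a summed macrophage list of 476 to 4202 CPM in monocytes and 51.8 to 3407 CPM in T cells of these libraries, whose part was not tested, and the call was lost without library as a block (0.42, edgeR adjusted p = 0.8395). Without the libraries labelled heart and liver TIL the differences in Ms4a6c, Ms4a4c and Ms4a6d were 3.17, 2.43 and 2.39. Ms4a4b was lower by 2.39 (edgeR adjusted p = 1.057e-23), the opposite direction to its neighbour Ms4a4c, whose promoter shares the capitals shown above. In cells of exactly 1 gate the medians moved further apart: Ms4a4c had 1099 CPM in monocytes and 192 CPM in T cells, and Ms4a4b 395 CPM and 2229.9 CPM.

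**Figure D2:**
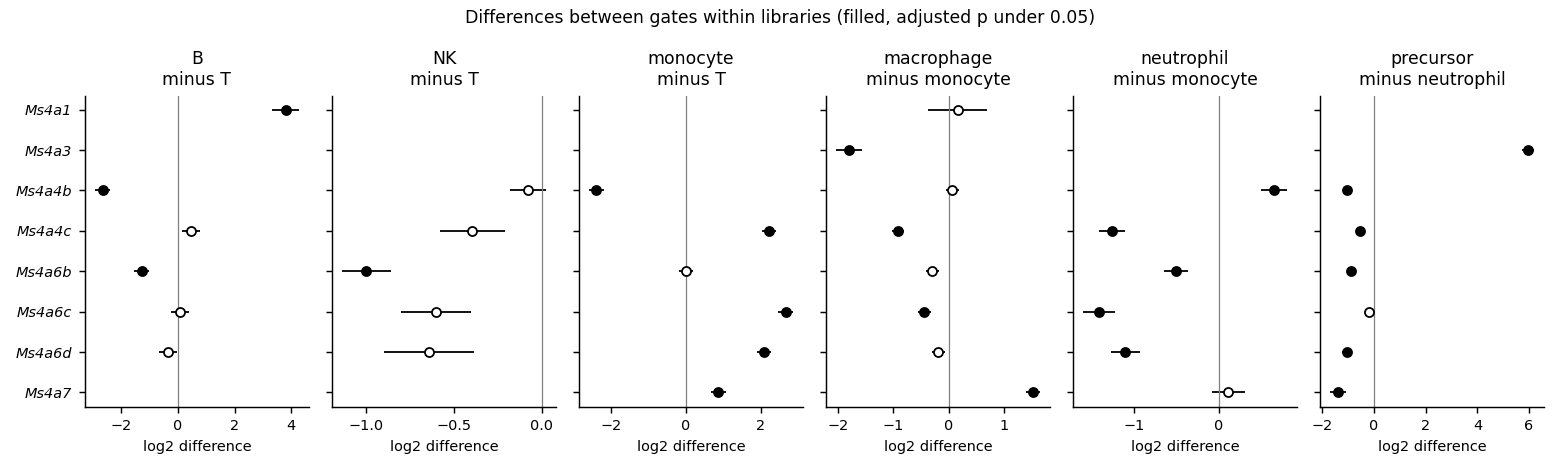
Difference between gates within libraries (horizontal axis, log2, own scale for each comparison) for each member that could be tested (rows), points giving edgeR's estimate and lines 1 SE. Filled points passed adjusted p 0.05: Ms4a3 was 5.96 higher in precursors than in neutrophils and Ms4a7 was 1.52 higher in macrophages than in monocytes, while Ms4a4b was 2.39 lower and Ms4a4c 2.22 higher in monocytes than in T cells.

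Macrophages, marked by the complement component C1q, were compared with monocytes in the 3 libraries that held both, those labelled heart TIL and liver TIL and liver PC. Ms4a7 was higher and Ms4a4c lower. For Ms4a7 the macrophage level was 489 CPM in the library labelled liver TIL, 233 CPM in kidney TIL, 221 CPM in the library labelled heart TIL, 136 CPM in liver PC and 37.0 CPM in kidney PC, where it rested on 85 cells. The monocyte level was 203, 123 and 91.5 CPM in the library labelled liver TIL, the library labelled heart TIL and liver PC.

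Of the 8 members, 4 were called between macrophages and monocytes, against 7.28% of 9479 genes. Ms4a7 was higher in macrophages by 1.52 on the log2 scale (SE 0.13, edgeR adjusted p = 1.155e-28) and, without the library labelled liver TIL, by 1.40. Ms4a4c was lower by 0.91 (SE 0.11, edgeR adjusted p = 1.881e-13) and Ms4a3 by 1.80 (SE 0.24, edgeR adjusted p = 5.53e-12). Counts of Ms4a3 were low. In the smaller groups described below, the monocyte gate without the macrophage gate held 7 (labelled heart TIL), 14 (liver PC) and 1 (labelled liver TIL) of its UMIs. The reverse held 8, 4 and 2. Ms4a6c was lower by 0.44 (SE 0.12, edgeR adjusted p = 0.005324), a call that was lost with DESeq2, with doubled gates, at 1000 UMIs and without the library labelled heart TIL or liver PC. Ms4a6d differed by -0.18 (edgeR adjusted p = 0.4799). Ms4a3 was not called in cells of exactly 1 gate (-1.65, edgeR adjusted p = 0.09418), and Ms4a6b, which differed by -0.29, was (-0.50, edgeR adjusted p = 0.00911). Leaving out both libraries of doubtful label left 1 library and no test. Without library as a block, which sets the pairing aside, 0 members were called (Ms4a7 2.04, edgeR adjusted p = 0.254), and the share of all genes called in that fit is not given.

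Cells that passed both gates lay between the others in Ms4a4c in all 3 libraries and in Ms4a7 in 2, while Ms4a6d was highest in cells of both gates in liver PC (792, 859.9 and 721 CPM) and in the library labelled heart TIL (876, 948 and 803 CPM). These groups did not hold every cell of the gates. In liver PC the monocyte gate without the macrophage gate held 691 cells here and the reverse 844, against 1467 and 1967 in the test above. In the library labelled heart TIL they held 616 and 1291, against 1041 and 2123, and in that labelled liver TIL 86 and 2212, against 106 and 3121. In the liver PC groups the Ms4a7 level was 52.6 CPM for the monocyte gate without the macrophage gate, 146 CPM for both and 211 CPM for the macrophage gate alone. In the library labelled heart TIL the same order gave 98.4, 191 and 265 CPM, and in the library labelled liver TIL 94.8, 549 and 548 CPM, the middle value there from 26 cells. Ms4a4c went the other way, with 1094, 724 and 490.0 CPM in liver PC, 1012, 740.2 and 534 CPM in the library labelled heart TIL and 1291, 968 and 550.0 CPM in the library labelled liver TIL. A cell of both gates may be 1 cell or a pair, which the counts do not tell apart.

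**Figure D3:**
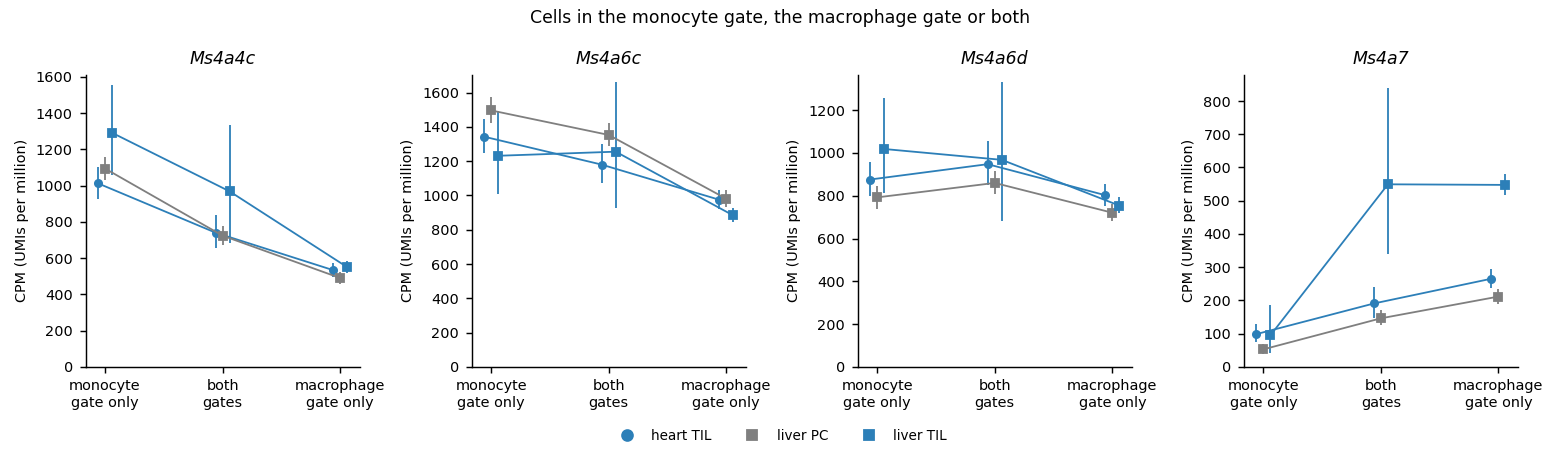
Level (vertical axis, CPM from 0, a separate scale for each gene) of 4 members in 3 groups (horizontal axis): monocyte gate without the macrophage gate, both, and the reverse. The groups are those described above, which leave out part of the gated cells, in the 3 libraries with at least 20 cells of each. Vertical lines are exact 95% Poisson intervals and lines join the groups of 1 library. Ms4a4c falls to 490.0 to 550.0 CPM and Ms4a7 reaches 211 to 548 CPM in cells of the macrophage gate, with Ms4a6c and Ms4a6d between 721 and 981 CPM.

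Ms4a3 marked the rarest cells. The precursor gate, set by enzymes of neutrophil primary granules, held at least 20 cells in 2 libraries: 129 in liver PC and 62 in the library labelled heart TIL. Their Ms4a3 levels were 549 CPM and 802 CPM. Neutrophils of these libraries had 18.8 CPM and 28.8 CPM, and monocytes 24.5 CPM and 31.4 CPM. After thinning, 13.2% (exact 95% interval 7.87% to 20.3%) and 19.4% (10.4% to 31.4%) of precursors held a Ms4a3 transcript, against 0.698% and 0.889% of neutrophils. Precursors were the deeper cells, with medians of 2341 UMIs and 1139 UMIs against 1577.5 UMIs and 887 UMIs in neutrophils. Kidney PC and kidney TIL had no row for Ms4a3, and in NK cells it was at 0 in all 6 sums, which allows between 23.9 and 105 CPM.

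With 2 libraries, 6 of 7 members were called between precursors and neutrophils, against 14.3% of 4650 genes. Most of these calls were lost without library as a block, a fit for which the share of all genes called is not given. Ms4a3 was higher in precursors by 5.96 on the log2 scale (SE 0.24, edgeR adjusted p = 2.118e-05). Genes of basophils and mast cells (Mcpt8, Cpa3, Fcer1a and Ms4a2) were at 11.8 CPM in precursors of the library labelled heart TIL and 218 CPM in those of liver PC, against at most 34.9 CPM in any other gate and library, and their part was not tested. Lower were Ms4a7 by 1.39, Ms4a4b by 1.06, Ms4a6d by 1.06, Ms4a6b by 0.90 and Ms4a4c by 0.53, with edgeR adjusted p from 0.001657 to 0.02918. DESeq2 called neither Ms4a4c (adjusted p = 0.4146) nor Ms4a7 (adjusted p = 0.281). Ms4a6c differed by -0.18 (edgeR adjusted p = 0.2769), with 817 and 790.4 CPM in precursors. The neutrophil gate of liver PC and of the library labelled heart TIL held 23950 and 14810 CPM of 6 neutrophil genes. The precursors there held 17500 and 13248.5 CPM of them. In the same order, the neutrophil gate also carried 3046 and 3739 CPM of 5 macrophage genes and 2258 and 2702 CPM of 5 T cell genes. The precursors carried 1798 and 1510.1 CPM, and 1219 and 1357 CPM, of these. The part of these macrophage and T cell transcripts in the lower members was not tested.

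The neutrophil gate had lower levels of the monocyte members than the monocyte gate did. In the libraries labelled heart and liver TIL it held 14810 and 13726 CPM of 6 neutrophil genes, against 10050 and 6298 CPM in the monocyte gate. Its 5 macrophage genes made up 3739 and 5205 CPM, against 3812 and 4202 CPM in the monocyte gate. Levels of the neutrophil gate in these 2 libraries are thus not shown to be those of neutrophils. Of 6 members tested in 6 libraries, 5 were called, against 10.1% of 6188 genes. Without the library block, which sets the pairing aside, 0 members were called. The share of all genes called in that fit is not given, so this count cannot be read against one. Ms4a6c was lower by 1.42 on the log2 scale (SE 0.19), Ms4a4c by 1.27 (SE 0.15), Ms4a6d by 1.11 (SE 0.17) and Ms4a6b by 0.50 (SE 0.14), with edgeR adjusted p from 8.529e-08 to 0.01319. Ms4a4b was higher by 0.66 (SE 0.16, edgeR adjusted p = 0.003743). The largest neutrophil level of this T and NK gene, 1438 CPM, was in kidney PBMC. The same cells held 2178 CPM of 5 T cell genes and 12197 CPM of the NK list (Klre1, Nkg7, Gzma, Prf1 and Tyrobp). Neutrophils of the other libraries held 544 to 2702 CPM and 4494 to 8383 CPM. The NK list was not confined to NK cells, with medians of 6592 CPM in monocytes and 6724 CPM in T cells. The part of these transcripts in the Ms4a4b level was not tested. At 1000 UMIs a cell the differences in Ms4a4b (edgeR adjusted p = 0.1076) and Ms4a6b (0.1784) were no longer called, and that in Ms4a6b was also lost without heart PBMC (0.0777), without liver PBMC (0.09937) and without the filter on low counts (0.06233). Without the libraries labelled heart and liver TIL the same members were called, with Ms4a6c at -1.83, Ms4a4c at -1.48, Ms4a6d at -1.41, Ms4a6b at -0.64 and Ms4a4b at 0.73.

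TIL and PBMC libraries were compared to ask whether a member differed between graft and blood within a lineage, with the 3 organs as replicates. In T cells 0 of 5 members were called, against 0.0498% of 6025 genes, that is 3 genes, with 872 genes at an unadjusted p under 0.05. DESeq2 also called 0 members. Ms4a4b, the T cell member, was at 1520.3 to 1884 CPM in TIL and 2123 to 2666 CPM in PBMC, groups that did not overlap, and differed by -0.61 (SE 0.30, edgeR adjusted p = 0.3969). For the fit with organ as a block the share of all genes called is not given. It called 2 members in T cells, Ms4a6d (1.55 higher in TIL, edgeR adjusted p = 0.004513) and Ms4a6c (1.14 higher, edgeR adjusted p = 0.04966). Without the libraries labelled heart and liver TIL, in the fit without a block, both differences turned sign (Ms4a6d -0.38, Ms4a6c -0.17), but that fit sets kidney TIL alone against PBMC of all 3 organs. Within the kidney pair both were higher in TIL, Ms4a6d by 1.58 and Ms4a6c by 2.05, and Ms4a4b differed by -0.60 in the fit without both libraries (edgeR adjusted p = 0.6433). Both are monocyte members, and 5 macrophage genes made up 2661, 3407 and 185 CPM of the T gate in the TIL libraries against 256, 408 and 51.8 CPM in PBMC, and their part was not tested. In NK cells 0 of 5 members were called by edgeR (0.312% of 1283 genes, 143 genes at an unadjusted p under 0.05), and 0 by DESeq2.

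Ms4a7 separated graft from blood in the myeloid gates, and in T cells of heart and liver as well. Its T level was 105, 201 and 8.27 CPM in the libraries labelled heart and liver TIL and kidney TIL and 1.44, 0 and 0 CPM in heart, liver and kidney PBMC, where a count of 0 allows up to 10.6 and 6.76 CPM in liver and kidney. It did not pass the filter on low counts in T cells and was not tested there, and the macrophage genes in these T sums are given above. Its monocyte level was 123 and 203 CPM in the libraries labelled heart and liver TIL and 1.74, 10.2 and 0 CPM in heart, liver and kidney PBMC, without overlap, and liver PC had 91.5 CPM. The 0 of kidney PBMC came from 24 cells, where a count of 0 allows up to 119 CPM. The neutrophil gates were unlike in content, with 14810 and 13726 CPM of 6 neutrophil genes in TIL against 201625, 127603 and 113434 CPM in PBMC. Ms4a7 in these gates was 152 and 311 CPM in TIL and 1.05, 4.22 and 0 CPM in PBMC. The differences were 4.49 on the log2 scale in monocytes (SE 0.61, n = 5 libraries, edgeR adjusted p = 2.817e-08) and 6.13 in neutrophils (SE 0.65, n = 5 libraries, edgeR adjusted p = 0.00367). Kidney TIL held too few cells of either gate, so that both graft values come from the libraries of doubtful label.

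Ms4a1 went the other way, with 6.17 and 5.80 CPM in TIL monocytes against 43.8, 71.7 and 0 CPM in PBMC monocytes. It was lower by 3.40 on the log2 scale in monocytes (SE 0.68, edgeR adjusted p = 1.754e-04) and by 4.09 in neutrophils (SE 0.93, edgeR adjusted p = 0.03735), and both gates should lack it. The TIL values rest on 11 UMIs and 1 UMI in monocytes and 3 and 2 UMIs in neutrophils, and the monocyte groups overlapped at kidney PBMC. Taken by organ, the ratio in neutrophils was -2.68 on the log2 scale in heart (95% counting interval -4.98 to -1.11) and -5.02 in liver (-8.07 to -3.15). In cells of exactly 1 gate the heart ratio was -1.35, with 1 UMI in TIL and an interval that held 0 (-6.67 to 1.18). Liver had 0 UMIs in TIL there, with an upper limit of -2.53. The monocyte call was lost with DESeq2 (adjusted p = 0.07526), with doubled gates and without the library labelled heart TIL, and the neutrophil call without either TIL library, without shared barcodes and at 1000 UMIs. The Ms4a3 level in monocytes was 31.4 CPM in the library labelled heart TIL (56 UMIs) and 5.80 CPM in that labelled liver TIL (1 UMI), against 6.94, 0.569 and 0 CPM in heart, liver and kidney PBMC, so that the groups overlapped. In cells of exactly 1 gate heart had 12.2 CPM in TIL and 10.6 CPM in PBMC. The fitted difference was 2.13 (SE 0.72, edgeR adjusted p = 0.04228), a call lost with organ as a block (edgeR adjusted p = 0.05999), with DESeq2 (0.8864), with doubled gates, without shared barcodes and without kidney PBMC. In all, 3 of 8 members were called in monocytes, against 9.58% of 8581 genes, and 2 of 7 in neutrophils, against 8.37% of 5509 genes. With organ as a block Ms4a6d was also called in neutrophils (1.63 higher in TIL, edgeR adjusted p = 8.556e-04). Macrophage genes made up 3812 and 4202 CPM of the monocyte gate and 3739 and 5205 CPM of the neutrophil gate in TIL, against 476 to 1152 CPM and 89.4 to 755 CPM in PBMC. Their part in the Ms4a7 difference was not tested. In cells of exactly 1 gate the difference in Ms4a7 was 3.44 in monocytes and 6.03 in neutrophils, both called. Macrophage genes still made up 2693 and 3572 CPM of these TIL neutrophils, against 272, 619 and 120 CPM in PBMC, and their part was not tested. With doubled gates the Ms4a7 difference could be tested in monocytes (3.36, edgeR adjusted p = 0.03043) and not in neutrophils.

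**Figure D4:**
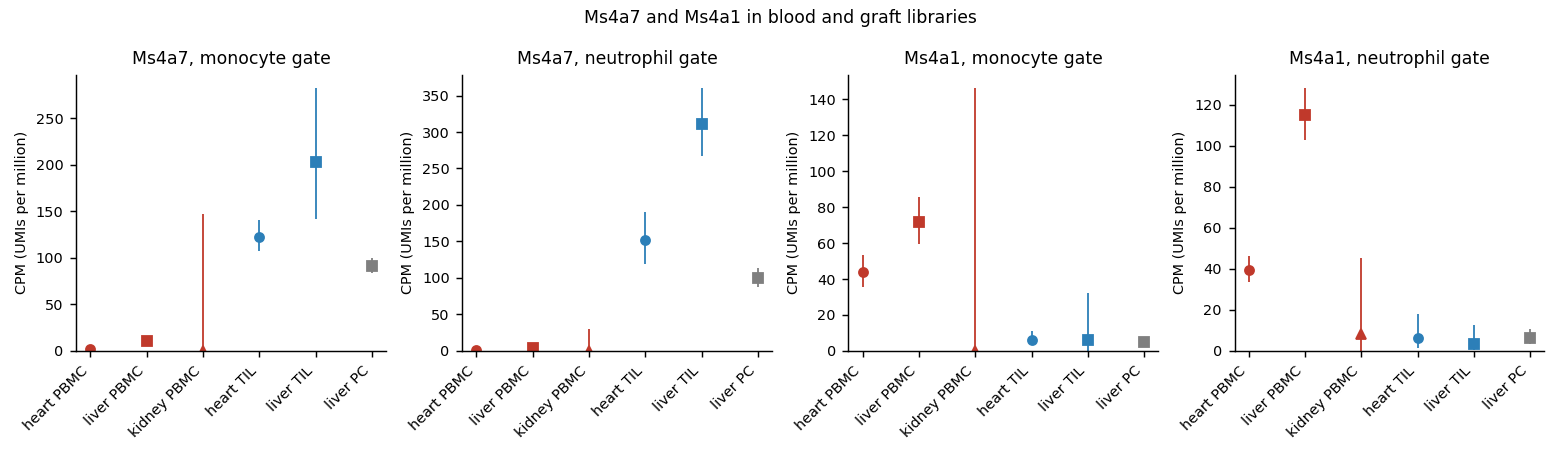
Level (vertical axis, CPM from 0, a separate scale for each panel) of Ms4a7 and Ms4a1 in the monocyte and neutrophil gates of each library with at least 20 cells (horizontal axis); vertical lines are exact 95% Poisson intervals. Ms4a7 is at 91.5 CPM or more in the graft libraries and at most 10.2 CPM in blood, and Ms4a1 reaches 115 CPM in neutrophils of liver PBMC.

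Of 14 further genes of the family, 9 had a row in any table. The related Tmem176a and Tmem176b and Ms4a8a were tested in most comparisons, and Ms4a4a in macrophages against monocytes (-0.52, edgeR adjusted p = 0.3875) and in TIL against PBMC monocytes (-0.53, edgeR adjusted p = 0.7508). Ms4a8a ran with the monocyte members: it was higher in monocytes than in T cells by 2.38 on the log2 scale (edgeR adjusted p = 5.912e-25) and lower in neutrophils than in monocytes by 1.32 (edgeR adjusted p = 1.607e-06), with 67.7 to 278 CPM in monocytes. Tmem176b was higher in macrophages than in monocytes by 0.73 (edgeR adjusted p = 2.496e-05) and Tmem176a by 0.63 (edgeR adjusted p = 0.005348). Ms4a4a had 405 UMIs in all barcodes, Ms4a4d 116 and Ms4a2, a chain of the IgE receptor of mast cells and basophils, 27. Ms4a5, Ms4a12, Ms4a13, Ms4a18 and Ms4a20 had no row in any table.

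Over the 37 sums of a gate and library, Ms4a4c, Ms4a6c and Ms4a6d had similar patterns, with Pearson r of 0.93 (Ms4a4c and Ms4a6c), 0.89 (Ms4a6c and Ms4a6d) and 0.86 (Ms4a4c and Ms4a6d) on log2(CPM + 1). Ms4a4b and its neighbour Ms4a4c had r = -0.64, and Ms4a6b reached at most 0.63, with Ms4a6d. These values describe sums that share libraries and, through overlapping gates, cells. Among 7685 other genes, the patterns nearest to the members were those of Fcmr (0.95) and Ighd (0.91) for Ms4a1, and of Nkg7 (0.94), Cd247 (0.93) and Skap1 (0.92) for Ms4a4b. For Ms4a4c they were Cst3 (0.92), Cybb (0.91) and Lyz2 (0.89), for Ms4a6c Cybb (0.93), Pld4 (0.92) and Naaa (0.91), and for Ms4a6d Ctsc (0.95), Naaa (0.93) and Ctsb (0.93). For Ms4a7 they were Tmem86a (0.92), Cxcl16 (0.91) and Lgmn (0.90), for Ms4a6b Maf (0.82), Lgals3 (0.72) and Anxa5 (0.71), and for Ms4a3, which rests on 2 precursor sums, Apoc4 (0.86), Serpina1c (0.85) and Ptgs1 (0.85).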

How the data were processed

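Single-cell RNA-seq (Microwell-seq) was available for 8 samples, 1 library each. Per the labels and the study's methods, GRCm38 was the build, STAR the aligner and GENCODE the annotation, reads with several alignments were dropped, and molecular barcodes 1 edit apart were merged. The deposited values are UMI counts, not normalized by the authors. Such 3′ counts number molecules and were not divided by gene length.

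Members, gates and lists were chosen with earlier results of these data known. The T and NK thresholds were set for this work. The genes named are the 8 members, a fixed list of 14 relatives, the 3 genes most alike to each member, and gate or marker genes. A gene alike to Ms4a1 is not reported here, and the B list was cut to 4 genes after its values were seen. No doublet caller was run, and cells of exactly 1 gate were the alternative. Between 123 and 617 barcodes were shared by a pair of libraries, most between those labelled heart TIL and liver TIL, and these were left out in another alternative. A gene without a row was counted as 0.

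UMIs were summed per gate and library and tested across all genes with edgeR 4.0.16 (R 4.3.3; TMM, filterByExpr, quasi-likelihood F test, Benjamini-Hochberg adjustment, called at adjusted p 0.05), with library as a block between gates, since the same cells' library pairs the sums, and cells of both gates of a pair left out. TIL and PBMC were compared without a block. Standard errors were taken as the log2 difference divided by the square root of F. DESeq2 1.42.0 was an alternative. CPM intervals are exact Poisson and shares exact binomial at 95%; both cover counting error only. A count of 0 allows up to 3 UMIs. Cells were thinned to 500 UMIs (seed 0). The procedure was tested on simulated data. Between gates, p-values measure how the differences within libraries spread over these libraries, and for TIL against PBMC the spread between libraries. Either may be technical. The quasi-likelihood test also draws on the spread of other genes, so a small p from few libraries does not rest on a member's own spread alone. Other tools were Python 3.11.15, numpy 2.4.6, scipy 1.17.1, pandas 2.3.3, Biopython 1.88 and matplotlib 3.10.9.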

Additional observations from a re-analysis of the deposited data

Results flagged for a closer look

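The difference between TIL and PBMC had opposite signs in different organs for a few members, judged by the direction of single libraries, so the difference between organs was not tested. In T cells Ms4a4c differed by 1.26 on the log2 scale in heart, -0.36 in liver and 1.12 in kidney, and Ms4a6b by 0.47, -0.03 and -0.47, where the counting interval of the liver value of Ms4a6b held 0. In cells of exactly 1 gate the intervals of Ms4a4c in liver (-0.47 to 0.50) and of Ms4a6b in heart (-0.09 to 0.32) also held 0. In neutrophils Ms4a4c differed by 1.6 in heart and -0.35 in liver, and in cells of exactly 1 gate the liver value was 0.12, with an interval that held 0 (-0.19 to 0.43). The heart and liver values use the TIL libraries whose organ markers go against their labels.

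Barcodes under 500 UMIs, which entered no comparison, also held transcripts of the members. In the library with most such UMIs the level was 164 CPM for Ms4a1 (liver PBMC), 1548 CPM for Ms4a4b (kidney TIL), and, in kidney PC, 363 CPM for Ms4a4c, 651 CPM for Ms4a6b, 517 CPM for Ms4a6c, 221 CPM for Ms4a6d and 30.4 CPM for Ms4a7.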

How the results depend on the processing

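Depth limited the kidney libraries (795 to 2005 cells) and sums of few cells. Not run for lack of cells or libraries were TIL against PBMC in B cells and macrophages, in NK cells at 1000 UMIs or doubled gates, and in myeloid cells without both libraries of doubtful label, precursors in exactly 1 gate, and precursors with a library left out. Without the replicate block of libraries between gates, the members called were 1 (B and T), 1 (NK and T), 4 (monocytes and T), 0 (macrophages and monocytes), 0 (neutrophils and monocytes) and 1 (precursors and neutrophils). With organ as a block, 2 members were called in T cells, TIL against PBMC; organ numbers are no replicate numbers, and 2 organ labels are in doubt. Without the low-count filter, 6 members were called between NK and T cells, 3 in T cells and 4 in neutrophils of TIL and PBMC. Shares of all genes called are given for the main fits only. Counts of members under the alternatives therefore have no general rate beside them and cannot be read against one. At 1000 UMIs, 3 were called between neutrophils and monocytes and 1 in TIL neutrophils. In TIL monocytes DESeq2 and doubled gates each gave 1. In TIL neutrophils leaving out shared barcodes gave 1, exactly 1 gate 1 and doubled gates 0. With each library left out, counts ranged from 2 to 4 (B and T), 1 to 3 (NK and T; 3 without liver PBMC), 4 to 6 (monocytes and T), 3 to 5 (macrophages and monocytes), 4 to 6 (neutrophils and monocytes), and for TIL against PBMC 0 to 1 (T; 1 without kidney TIL), 0 to 0 (NK), 1 to 3 (monocytes; 1 without heart PBMC or the library labelled heart TIL) and 1 to 2 (neutrophils; 1 without heart PBMC or either TIL library). Of 296 levels, those within the main interval were 136 of 264 (exactly 1 gate), 177 of 240 (1000 UMIs), 94 of 256 (doubled gates), 282 (shared barcodes left out) and 226 (thinned). In these cases, and in the sign changes that follow, the cause was not tested. All sign changes were of differences called in neither fit. On the log2 scale, Ms4a6b between monocytes and T cells was -0.099 with DESeq2's size factors, -0.098 with DESeq2, -0.034 unfiltered, -0.032 at 1000 UMIs and -0.12 without both libraries of doubtful label. Between B and T cells Ms4a6c was -0.23 unfiltered and -0.021 without the block, and Ms4a6d 0.21 at 1000 UMIs and 0.059 in exactly 1 gate. Between NK and T cells in exactly 1 gate Ms4a6c was 0.036 and Ms4a6d 0.055. Between macrophages and monocytes Ms4a4b was -0.019 without shared barcodes, -0.048 at 1000 UMIs, -0.11 in exactly 1 gate and -0.11 with doubled gates, and Ms4a1 -0.16 without the block. Between neutrophils and monocytes Ms4a7 was -0.14 with DESeq2 and -0.0045 with doubled gates. For TIL against PBMC in T cells, without both libraries of doubtful label Ms4a4c was -1.04, Ms4a6c -0.17 and Ms4a6d -0.38, with kidney TIL alone against PBMC of 3 organs (within the kidney pair 1.12, 2.05 and 1.58), and Ms4a6b was 0.041 unfiltered. In NK cells Ms4a4c was 0.088 in exactly 1 gate and Ms4a4b 0.0012 with the organ block. In monocytes Ms4a4c was -0.062 without shared barcodes, -0.40 at 1000 UMIs, -0.27 with doubled gates and -0.019 unfiltered, Ms4a6b -0.048 with doubled gates, and Ms4a6c 0.043 in exactly 1 gate and 0.24 with the organ block. In neutrophils Ms4a4b was 0.42 in exactly 1 gate, 0.38 with doubled gates and 0.60 with the organ block. With each library left out, ranges were -0.28 to 0.045, -0.25 to 1.22 and -0.39 to 0.57 (Ms4a4b, TIL against PBMC in NK cells, monocytes and neutrophils), -0.11 to 0.29 (Ms4a4b, macrophages and monocytes), -0.59 to 0.086, -0.26 to 1.19, -0.30 to 0.40 and -0.024 to 1.25 (Ms4a4c, TIL against PBMC in NK, T, monocytes and neutrophils), -0.14 to 0.41 and -0.51 to 0.14 (Ms4a6b and Ms4a6c, TIL against PBMC in monocytes), -0.12 to 0.11 (Ms4a6b, monocytes and T), -0.30 to 0.40 (Ms4a6c, B and T) and -0.047 to 0.22 (Ms4a7, neutrophils and monocytes).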
